A study of Mus musculus with 24 samples.

Results

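Distal genomic loci of the mouse cortex that carried peaks of all 3 of ARID1B, FOXP1, and TCF7L2 on embryonic day E15.5, but not on E18.5, are described here. The members were chosen by the deposited peak calls of both stages. Peaks of the 3 transcriptional regulators (TRs) on chromosomes 1 to 19 that did not touch a promoter (the 2000 bp before a transcription start site, TSS) were merged into distal loci at each stage. A locus with all 3 TRs at E15.5 was a member if it overlapped no distal locus with all 3 TRs at E18.5. These E15.5-only loci numbered 6618 of the 11326 distal loci with all 3 TRs at E15.5 (58.4%, 95% Wilson interval 57.5 to 59.3), and of 64694 distal loci of any TR at that stage. The other 4708 loci overlapped a locus with all 3 TRs at E18.5 and are called constant. In the opposite direction, 1505 of the 6214 distal loci with all 3 TRs at E18.5 were E18.5-only.

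The cortices came from wild-type (WT) mice, and no treatment is given for any group. Each of the 6 groups (the 3 TRs, each on both days) had 2 ChIP and 2 input libraries from biological replicates, 24 libraries in all. The sample labels call the third target TCF4, but the study lists an antibody against TCF7L2, and that name is used. Peaks were called per replicate for quality control and again on merged replicates, and the deposited lists are of the second kind. Each group is thus 1 list, no spread between replicates can be given, and no difference between stages was tested. Intervals on shares cover counting error only. In whole cortex, fewer cells of a type and less binding per cell cannot be told apart.

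ARID1B is a subunit of the BAF complex, which moves nucleosomes and keeps enhancers accessible. FOXP1 is a forkhead transcription factor of cortical neurons, and TCF7L2 is an HMG-box factor through which β-catenin acts on target genes of the Wnt pathway. Distal loci with several TRs are often enhancers, which act on genes over long distances. At the earlier stage the cortex is producing upper-layer neurons, and at the later stage neurogenesis is ending and the formation of glia has begun.

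The sequences below are from the highest of all members, or the highest of a gene, with a motif, or of a rarer outcome at E18.5, and none was chosen as typical. They are given on the plus strand of GRCm38 (mm10), as 200 bp around the summit of the leading TR, the one whose E15.5 peak had the highest −log10 p. A p-value rests on read number as well as on enrichment, so the leading TR need not have the highest fold enrichment. Capitals mark 3 short motifs found on either strand: the FOX core TGTTTAC, the TCF/LEF core ATCAAAG, and the proneural E-box CAGATG, a form of the site that basic helix-loop-helix (bHLH) factors such as neurogenins bind. Members are named by the nearest protein-coding TSS, whatever its distance. The first windows are from loci that were among the highest when each locus was ranked by the lowest fold enrichment of its 3 E15.5 peaks. Cdh26 (chr2:178841051-178841250, intergenic) kept ARID1B and TCF7L2 at E18.5, and Fam222a (chr5:114570076-114570275, intron) had peaks of all 3 TRs there, none of which lay in a distal locus with all 3. Neither window holds a marked motif, and the window near Fam222a holds a CA repeat.
Cdh26: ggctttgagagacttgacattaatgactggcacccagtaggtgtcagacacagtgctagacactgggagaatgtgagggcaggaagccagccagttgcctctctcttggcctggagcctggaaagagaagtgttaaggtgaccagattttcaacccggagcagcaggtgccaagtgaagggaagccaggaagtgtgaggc
Fam222a: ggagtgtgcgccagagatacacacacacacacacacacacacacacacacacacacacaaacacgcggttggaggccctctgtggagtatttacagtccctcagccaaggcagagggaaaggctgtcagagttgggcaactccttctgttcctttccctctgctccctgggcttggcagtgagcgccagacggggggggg

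The next windows lie near genes of cortical development. The Emx2 locus (chr19:59697734-59697933, intergenic) is the highest member with a TCF/LEF core within 50 bp of the summit. It is followed by the highest members assigned to Eomes (chr9:118318874-118319073, intergenic), Bcl11a (chr11:24631681-24631880, in an intron), Sox5 (chr6:143995185-143995384, intron), and Gse1 (chr8:120335765-120335964, intron), which were chosen after their values were seen. All 5 kept ARID1B and TCF7L2 at E18.5. The Bcl11a window, whose intron is of another gene, holds 4 proneural E-boxes, and the Gse1 window holds a FOX core. In the Sox5 window, the homeobox core TAATTA is also in capitals.
Emx2: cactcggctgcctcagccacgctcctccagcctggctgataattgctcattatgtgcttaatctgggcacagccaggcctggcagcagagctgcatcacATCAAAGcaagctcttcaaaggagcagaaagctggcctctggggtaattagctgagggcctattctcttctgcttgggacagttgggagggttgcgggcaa
Eomes: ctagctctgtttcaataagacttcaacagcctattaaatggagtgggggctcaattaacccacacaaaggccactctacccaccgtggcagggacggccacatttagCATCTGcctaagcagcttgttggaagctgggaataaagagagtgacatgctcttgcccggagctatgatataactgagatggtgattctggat
Bcl11a: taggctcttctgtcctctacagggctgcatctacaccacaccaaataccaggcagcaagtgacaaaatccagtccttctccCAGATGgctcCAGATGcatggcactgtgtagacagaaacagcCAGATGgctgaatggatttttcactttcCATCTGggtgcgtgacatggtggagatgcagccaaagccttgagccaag
Sox5: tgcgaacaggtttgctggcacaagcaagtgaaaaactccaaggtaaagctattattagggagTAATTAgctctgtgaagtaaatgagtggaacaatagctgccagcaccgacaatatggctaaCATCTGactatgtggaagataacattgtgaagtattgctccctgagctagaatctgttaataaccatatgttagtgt
Gse1: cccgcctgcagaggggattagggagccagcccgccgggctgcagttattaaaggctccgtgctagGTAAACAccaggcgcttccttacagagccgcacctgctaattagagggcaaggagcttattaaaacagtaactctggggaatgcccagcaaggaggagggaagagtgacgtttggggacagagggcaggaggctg

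The last windows show the rarer outcomes at E18.5. Pdk2 (chr11:95037487-95037686, intron) and D430019H16Rik (chr12:105436077-105436276, intergenic) are the highest members without any peak at E18.5, and the second holds a tandem repeat. Adm (chr7:110630219-110630418, intron) is the highest member that kept FOXP1 and TCF7L2 and has a match to a core of the CTCF motif, in capitals here, within 50 bp of the summit. It was also chosen after its values were seen. CTCF holds chromatin loops at their anchors.
Pdk2: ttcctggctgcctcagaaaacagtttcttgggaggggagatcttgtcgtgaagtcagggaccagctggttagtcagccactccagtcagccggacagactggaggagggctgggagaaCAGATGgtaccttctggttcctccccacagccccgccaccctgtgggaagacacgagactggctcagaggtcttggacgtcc
D430019H16Rik: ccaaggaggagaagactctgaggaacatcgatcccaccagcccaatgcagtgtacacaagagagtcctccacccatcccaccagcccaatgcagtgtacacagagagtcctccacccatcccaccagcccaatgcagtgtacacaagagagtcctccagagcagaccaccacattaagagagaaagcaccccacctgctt
Adm: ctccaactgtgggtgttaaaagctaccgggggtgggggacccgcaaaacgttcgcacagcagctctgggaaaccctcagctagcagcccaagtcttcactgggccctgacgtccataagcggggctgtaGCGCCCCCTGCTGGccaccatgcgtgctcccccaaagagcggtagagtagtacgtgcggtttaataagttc

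At E18.5, most E15.5-only loci lacked only the FOXP1 peak. ARID1B and TCF7L2 peaks, without a FOXP1 peak, overlapped 5471 of 6618 members by at least 1 base (82.7%, 81.7 to 83.6). Over all distal loci of E15.5, the same combination was found at 20.1%. The next most frequent outcomes were TCF7L2 alone at 372 members (5.62%), ARID1B alone at 349 (5.27%), and FOXP1 with TCF7L2 at 193 (2.92%). ARID1B with FOXP1 was found at 72 members and FOXP1 alone at 20. No E18.5 peak remained at 53 members (0.801%, 0.613 to 1.05), compared with 25.9% of all distal loci. That share depended on the overlap required. It was 2.24% when the E18.5 peak had to cover the E15.5 summit. When overlaps had to cover at least 50% of the E15.5 locus, it was 5.74% of the loci then E15.5-only. The rule fixed that the 3 TRs do not meet in 1 distal locus at E18.5, so these shares describe the members and test nothing.

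**Figure D1:**
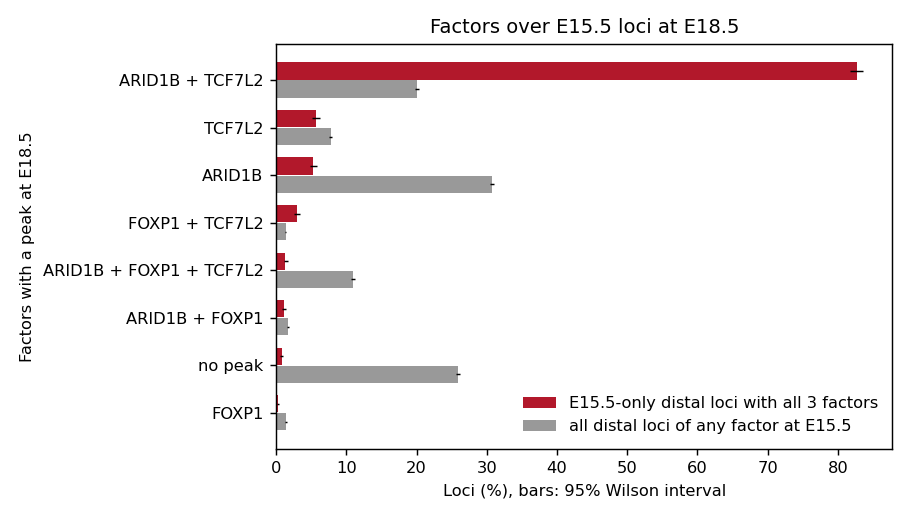
Share of distal E15.5 loci (horizontal axis, %) by the TRs whose peaks overlapped them at E18.5 (vertical axis), for the 6618 E15.5-only loci (red) and for all 64694 distal loci of any TR at E15.5 (gray), with 95% Wilson intervals. ARID1B with TCF7L2 accounts for 82.7% of the red bars and 20.1% of the gray bars, whereas no peak accounts for 0.801% and 25.9%.

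By single TR, 92.5% of the members (6124) overlapped a TCF7L2 peak at E18.5, 90.4% (5980) an ARID1B peak, and 5.64% (373) a FOXP1 peak. Among all distal loci of E15.5 the shares were 40.2% for TCF7L2, 63.5% for ARID1B, and 15.4% for FOXP1. Among the distal loci that carried the same TR at E15.5, they were 93.0%, 75.6%, and 21.0%. The TCF7L2 share of the members was thus close to that of any distal TCF7L2 locus. Of the 6245 members without FOXP1, 286 had an E18.5 FOXP1 peak within 1000 bp. All 3 TRs overlapped 88 members at E18.5. At 64 of these at least 1 peak reached a promoter, and at 24 the peaks belonged to separate distal loci, so these 88 entered by the geometry of the rule. For the E18.5-only loci, FOXP1 already had a peak at E15.5 at 99.5% (1497 of 1505), ARID1B at 89.1%, and TCF7L2 at 20.6%. Among all distal loci of E18.5 these shares were 59.7%, 71.3%, and 25.9%, and among those that carried the same TR they were 92.1%, 83.3%, and 44.6%. All 3 TRs overlapped 250 of the E18.5-only loci (16.6%) when any E15.5 peak was counted.

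The lists also differed in depth. From E15.5 to E18.5 it fell for FOXP1 and for ARID1B, and it rose for TCF7L2. Of the ChIP and input reads behind each list, the smaller set held 64.53 M for FOXP1 at E15.5 and 26.31 M at E18.5, the lowest of the 6 groups. For ARID1B it held 80.69 and 57.32 M reads, and for TCF7L2 60.1 and 76.08 M. The FOXP1 lists held 63281 and 24526 peaks on chromosomes 1 to 19. The lowest FOXP1 summit called at E18.5 lay 3.99 times above background, and 19.1% of the members without FOXP1 at E18.5 (1194 of 6245) had an E15.5 FOXP1 summit below that value. Of the members with a FOXP1 peak at E18.5, 11.0% (41 of 373) had an E15.5 summit below it as well. Against the level that 95% of the E18.5 FOXP1 peaks exceeded, 4.99 times background, the share was 51.0% (3183). With only the FOXP1 peaks of highest rank kept, so that its 2 lists were of equal size, 2892 loci were E15.5-only (40.5% of those with all 3 TRs) and 8.4% of them had FOXP1 at E18.5. That setting was chosen after the data were seen. With the 2 lists of each TR of equal size, a planned setting, 3141 loci were E15.5-only (44.3%). Of these, 16.0% had FOXP1 and 77.3% TCF7L2 at E18.5. A stricter threshold (−log10 p of 15 or more) left 1559, or 76.2%. The part of depth in the loss of FOXP1 peaks was not tested.

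The members had lower medians than the constant loci at E15.5 for all 3 TRs. The deposited fold enrichment compares reads at the summit with the background after 1 is added to both. Its median over the members was 4.73 for ARID1B (quartiles 3.66 and 6.5), 4.56 for FOXP1 (3.8 and 5.32), and 3.68 for TCF7L2 (3.37 and 4.31). Over the constant loci the medians were 5.88 for ARID1B, 6.71 for FOXP1, and 4.31 for TCF7L2. The members were also shorter, with a median length of 827 bp compared with 1085 bp, and covered 6.1 Mb in all. Summits of the 3 TRs lay close together, with median distances of 73 bp between ARID1B and FOXP1, 80.0 bp between ARID1B and TCF7L2, and 85 bp between FOXP1 and TCF7L2.

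Where a peak remained, its height was similar at both stages. To compare lists of different depth, the added 1 was removed and summits were expressed as reads over background. At the 5980 members with ARID1B at both stages, the median ratio of E18.5 to E15.5 was 1.12 (quartiles 1.01 and 1.24). It was 0.992 (0.899 and 1.12) for TCF7L2 at 6124 members and 1.02 (0.888 and 1.20) for FOXP1 at 373. At the constant loci the ratios were 1.12, 1.02, and 0.891 in the same order. The E18.5 summit lay a median of 57 bp from the E15.5 summit for ARID1B, 73 bp for TCF7L2, and 63 bp for FOXP1. Because a peak had to pass its threshold at E18.5 to enter, these ratios leave out the sites that fell below it.

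**Figure D2:**
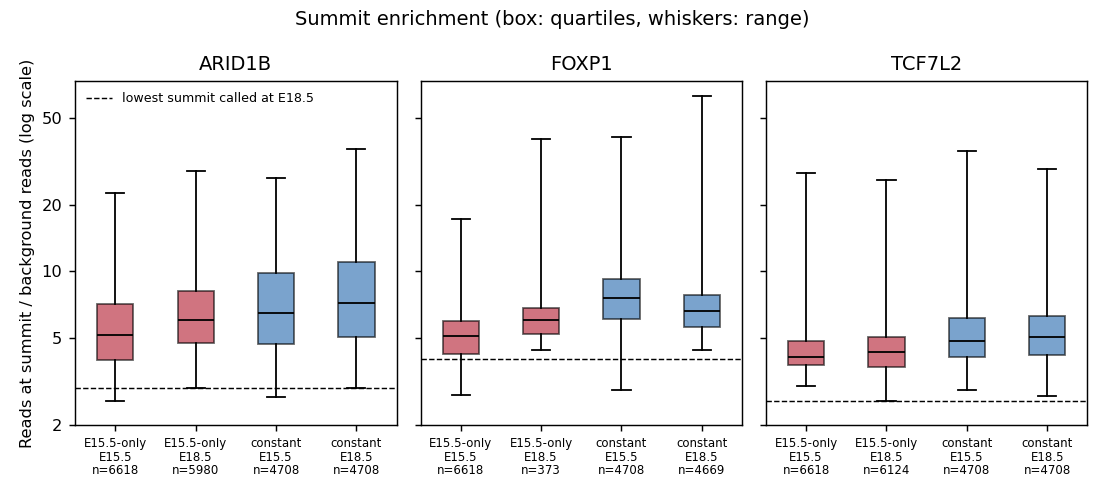
Reads at the summit divided by background reads (vertical axis, log scale) for each TR at E15.5 and E18.5, over E15.5-only (red) and constant (blue) loci with a peak, with boxes at the quartiles, a line at the median, and whiskers over the whole range. The dashed line is the lowest summit called at E18.5, which for FOXP1 (3.99) crosses the lower whisker of the E15.5-only loci at E15.5.

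The height of FOXP1 at E15.5 divided the 2 classes most widely. When the 11326 loci were split into 5 equal classes by FOXP1 reads over background, 93.9% of the lowest class were E15.5-only (2127 of 2266), then 83.4%, 63.0%, and 40.0%, and 11.9% of the highest class (270 of 2265). By TCF7L2 the share fell from 82.7% to 31.1%. By ARID1B it fell from 74.8% in the lowest class to about the same level in the 3 middle classes (62.4%, 59.7%, and 60.2%) and 35.1% in the highest. By −log10 p, ARID1B was the leading TR at 65.2% of the members (4313) and at 50.7% of the constant loci, FOXP1 at 26.7% (1767) and 46.3%, and TCF7L2 at 8.13% (538) and 3.08%. By reads over background, a choice made after the data were seen, ARID1B led at 52.8% of the members and 42.2% of the constant loci, FOXP1 at 33.2% and 52.9%, and TCF7L2 at 13.9% and 4.82%. These peak heights stand behind the calls that chose the members.

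**Figure D3:**
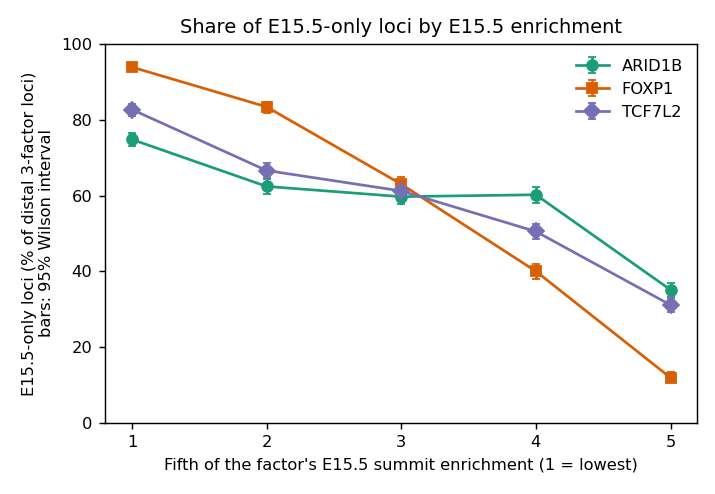
Share of E15.5-only loci (vertical axis, % of distal loci with all 3 TRs) in each of 5 equal classes of E15.5 summit enrichment (horizontal axis, 1 = lowest), with a line per TR and 95% Wilson intervals. The FOXP1 line falls from 93.9% to 11.9%, over a wider range than the lines for ARID1B (74.8% to 35.1%) and TCF7L2 (82.7% to 31.1%).

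The strongest members stood well above every threshold. The locus at chr2:178840376-178841916 is assigned to Cdh26, a cadherin gene whose TSS lies 381 kb away, while the nearest TSS of any gene, Gm14314, lies at 180 kb. It had E15.5 fold enrichments of 13.3 (ARID1B), 10.1 (FOXP1), and 10.8 (TCF7L2). At E18.5 it had 15.8 for ARID1B, 11.9 for TCF7L2, and no FOXP1 peak. Values of single loci here and below are fold enrichments as deposited unless said otherwise. The added 1 lowers them more in a list with fewer reads, so their difference between stages is partly one of scale. As reads over background, ARID1B at this locus went from 14.7 to 18.3 and TCF7L2 from 12.3 to 13.3.

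Of the 10 highest members, 8 kept ARID1B and TCF7L2 only. Besides Cdh26, these included members assigned to Rph3al, Enpp7, Kctd14, Serinc5, Fars2, and Cdh4, whose E15.5 FOXP1 fold enrichments lay between 8.48 and 9.37. The other 2 had all 3 TRs at E18.5 by separate or promoter-reaching peaks. At Fam222a, 2.16 kb downstream of the TSS, FOXP1 went from 17.2 to 16.2 reads over background. Near Znrf4, 2.58 kb downstream of the TSS, it went from 15.9 to 10.2 on the same scale. These 2 are members by the rule although FOXP1 was still called.

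The 53 members without any E18.5 peak had lower E15.5 medians than all members, at 3.04 for ARID1B, 3.54 for FOXP1, and 3.27 for TCF7L2. Single values reached 4.37, 5.57, and 4.73. At Pdk2, which encodes a kinase that inhibits pyruvate dehydrogenase, the fold enrichments were 4.01 for ARID1B, 3.54 for FOXP1, and 3.58 for TCF7L2. The next highest, near D430019H16Rik, Tceanc2, Prdm11, and Spg11, had a lowest value among the 3 TRs of 3.54, 3.47, 3.30, and 3.30. At the edge of the rule, the members assigned to Zfp608, Ahdc1, and Ston1 ended 1, 11, and 43 bp from a distal locus with all 3 TRs at E18.5. The constant loci assigned to Gpr84, Gse1, and Pde4d overlapped one by 5, 24, and 31 bp, and none of these 3 had a FOXP1 peak touching it at E18.5.

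Introns held the summit of 54.4% of the members (3597, 53.1 to 55.5), 43.9% of the constant loci, and 52.9% of all distal loci. Intergenic sequence held 38.8% of the members and 47.9% of the constant loci. A further 2.77% lay in coding exons, 2.31% in untranslated regions, and 1.74% in non-coding exons. The median distance to the nearest TSS was 13236 bp (quartiles 5080 and 32144), compared with 12486 bp for constant and 14292 bp for all distal loci, and 4.81% lay more than 100 kb from any TSS. Among the members that kept TCF7L2 alone, the summit lay within 2000 bp downstream of the nearest TSS in 23.4% (87 of 372, 19.4 to 27.9), compared with 7.09% of those that kept ARID1B and TCF7L2.

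On every autosome the E15.5-only loci made up between 52.8% and 62.5% of the distal loci with all 3 TRs. Another member lay within 10 kb of 27.2% of the members (1798), and a constant locus within 10 kb of 16.4% (1084). By nearest TSS, the members were assigned to 3320 of 20780 autosomal protein-coding genes (16.0%), of which 1933 had a single one and 250 had at least 5. A constant locus was assigned to the same gene for 60.1% of the members.

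Gse1 (chr8:120228456-120581390, 353 kb) had the most members, 39, along with 19 constant loci and 120 distal loci in all. Of these 39, 37 had the summit inside the gene, all in introns, and 2 lay upstream, inside an intron of Gm20388. That annotated read-through gene spans 4.43 Mb and holds 70 members, 68 of them counted as intronic. No Gse1 member had FOXP1 at E18.5, while 37 kept ARID1B and 38 kept TCF7L2. These counts and those of the genes that follow stand beside 5.64% with FOXP1, 90.4% with ARID1B, and 92.5% with TCF7L2 over all members. The E15.5 FOXP1 fold enrichment over the 39 ranged from 2.78 to 5.95 with a median of 4.18. For ARID1B the median was 4.19 over the 39 at E15.5 and 4.63 over the 37 with a peak at E18.5. For TCF7L2 it was 3.89 over the 39 and 4.10 over the 38 with a peak at E18.5.

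**Figure D4:**
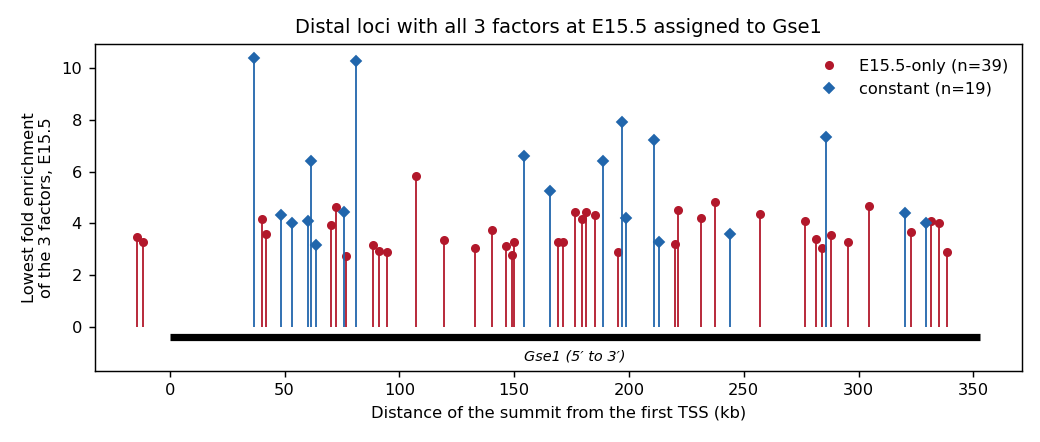
Distance of each summit from the first TSS of Gse1 (horizontal axis, kb) against the lowest E15.5 fold enrichment of the 3 TRs (vertical axis) for the 39 E15.5-only (red circles) and 19 constant (blue diamonds) loci assigned to the gene, drawn as a black bar. The 2 classes are interspersed along the introns, and the highest E15.5-only locus reaches 5.82.

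The other genes with most members were Auts2 with 26, Tenm4 with 20, Nfib with 19, and Zfp608 with 16. AUTS2 takes part in a Polycomb complex and Auts2 is an autism candidate gene, Tenm4 encodes a teneurin adhesion protein, and NFIB is a transcription factor of glial and neuronal maturation. These genes span 105 kb (Zfp608) to 1110 kb (Auts2), so many lie among the long genes, and the part of gene length was not tested. At Auts2, 25 members kept ARID1B, 25 kept TCF7L2, and none kept FOXP1. The Auts2 members were high in ARID1B, with a median fold enrichment of 6.33 over the 26 at E15.5 and 6.87 over the 25 with a peak at E18.5. At Nfib, all 19 kept ARID1B and TCF7L2 peaks, and 1 also had FOXP1 at E18.5, at 4.09.

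The genes of the 5 autism-associated TRs of the study had 20 members and 12 constant loci. None of the 20 had FOXP1 at E18.5, and 18 kept ARID1B and TCF7L2. Over all members the shares were 5.64% and 82.7%, and both counts lie near them. Bcl11a, a zinc-finger gene of the BAF complex, had 8 members. The highest lay 489 kb downstream of its nearest Bcl11a TSS (chr11:24631470-24632278), with E15.5 values of 14.8 (ARID1B), 7.97 (FOXP1), and 6.29 (TCF7L2), and 16.1 for ARID1B and 5.91 for TCF7L2 at E18.5. Of the 8, 6 kept ARID1B and TCF7L2 and 2 kept TCF7L2 alone.

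At Foxp1 itself, 3 members had no FOXP1 peak at E18.5. The ARID1B value at these went from 9.70 to 13.2, from 5.53 to 6.59, and from 4.55 to 5.47. The first of these (chr6:98767306-98768718) lies 162 kb downstream of the nearest TSS of Foxp1 and had a FOXP1 fold enrichment of 7.47 at E15.5. Arid1b had 4 members, Tcf7l2 had 3, and Tbr1, the T-box gene of deep-layer neurons, had 2. The Tbr1 locus 7.56 kb upstream of the TSS (chr2:61794808-61795930) went from 10.1 to 9.40 for ARID1B, and its FOXP1 value at E15.5 was 4.56. All 9 of these members kept both ARID1B and TCF7L2.

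Gene lists for cortical cell types and pathways were compared by counts alone. Of 18 radial glia genes, 16 had at least 1 member, and of 24 axon guidance genes, 23 did, against 16.0% of all genes. Constant loci were also more widespread at these genes, with 61.1% of the radial glia and 70.8% of the axon guidance genes against 14.3% of all genes. The median number of members per gene was 2.5 for radial glia, 4.0 for axon guidance, and 0.0 over all genes. Upper-layer genes had members at 14 of 14 genes, and deep-layer and subplate genes at 11 of 16. The lists of other cell types had fewer, with endothelial genes at 4 of 12 and microglial genes at 2 of 10. That order depended on how loci were assigned. When any member within 100 kb of a TSS was counted, microglial genes had one at 6 of 10, deep-layer and subplate genes at 8 of 16, and 36.5% of all genes had one. Under the stricter threshold the counts were 7 for radial glia, 11 for axon guidance, 6 for upper-layer, and 0 for endothelial genes. Deep-layer and subplate genes then had 10 of 16 and intermediate progenitor and proneural genes 8 of 14, so the order of upper-layer and deep-layer genes turned. With lists of equal size it did not turn, with upper-layer genes at 11 of 14 and deep-layer and subplate genes at 8 of 16. Intermediate progenitor and proneural genes then had 5 of 14. The share of all genes was not computed under either setting, so these counts have no background to be read against. The listed genes also differ from other genes in length and in how many distal loci surround them, and the part of either was not tested.

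Against 58.4% over all genes, E15.5-only loci made up 75.2% of the distal loci with all 3 TRs at axon guidance genes (100 of 133, 67.2 to 81.8). They made up 72.6% at Wnt genes (60.4 to 82.1) and 72.3% at radial glia genes (61.8 to 80.8). For interneuron genes the share was 68.6%, for deep-layer and subplate genes 64.8%, and for upper-layer genes 60%. Intermediate progenitor and proneural bHLH genes had 55.6%, Notch genes 53.2%, synaptic genes 52.8%, and glial genes 51.5%, and the intervals of these 7 lists all included 58.4%. Endothelial genes had 66.7% (6 members), the 5 TR genes had 62.5%, and microglial genes had 2 members beside 2 constant loci, and these intervals also included 58.4%. Loci of 1 gene lie close together and are not independent, so the intervals are too narrow.

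Among radial glia genes, Sox9 had 10 members, Id4 had 9, and Sox2 had 8. SOX2 and SOX9 maintain neural progenitors, and ID4 blocks bHLH factors. Of the 10 Sox9 members, 9 kept ARID1B, 9 kept TCF7L2, and none kept FOXP1. All 9 Id4 members and all 8 Sox2 members kept ARID1B and TCF7L2 without FOXP1. Those of Id4 were spread over a wide region, between 96.1 and 484 kb from its TSS, and 8 of the 9 lay upstream. The strongest ARID1B summit near Id4 went from 9.61 at E15.5 to 8.70 at E18.5, with a FOXP1 value of 6.71 at E15.5.

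Eomes, which marks intermediate progenitors, had 3 members. The highest (chr9:118317669-118319612), 159 kb upstream, had E15.5 values of 7.39 (ARID1B), 6.08 (FOXP1), and 7.86 (TCF7L2), and 7.15 for ARID1B and 8.21 for TCF7L2 at E18.5. Gadd45g had 5 members, and all of them kept ARID1B and TCF7L2. Among neuronal genes, Cux2 of upper layers had 7 members, of which 5 kept ARID1B, 6 kept TCF7L2, and 1 kept FOXP1. All 7 summits lay in introns, but 1 was 4.65 kb upstream of the TSS, outside Cux2 itself. Sox5, a regulator of deep-layer neurons, had 6, the highest of which held E15.5 values of 10.7 (ARID1B), 8.10 (FOXP1), and 8.38 (TCF7L2). At E18.5 that locus held 11.6 for ARID1B and 7.88 for TCF7L2.

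In the Wnt list, the receptor gene Fzd1 had 7 members and no constant locus. At the Fzd1 member with the highest ARID1B value (chr5:4526024-4526872), ARID1B went from 12.5 to 13.6, TCF7L2 went from 3.79 to 3.50, and FOXP1 was 6.20 at E15.5 only. Axin2, a Wnt target and feedback inhibitor, had 4 members that all kept ARID1B and TCF7L2, with TCF7L2 medians of 4.47 and 4.49. Tcf7l1, a relative of Tcf7l2, had 5, of which 4 kept ARID1B and TCF7L2 and 1 had no E18.5 peak. In the Notch list, the effector gene Hes1 had 5 and the receptor gene Notch2 had 4.

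Among axon guidance genes, Slit1, which encodes a repellent ligand, had 10 members and 1 constant locus, the semaphorin receptor gene Plxna4 had 8 and 1, and the ephrin receptor gene Epha4 had 8 and none. All 8 members of Plxna4 and of Epha4 kept ARID1B and TCF7L2. The Slit1 members were more varied. Of these, 8 kept ARID1B and TCF7L2, 1 kept FOXP1 alone (from 3.48 to 4.79 reads over background), and 1 had no peak. Olig2, of the oligodendrocyte lineage, had 4 members and no constant locus.

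The base composition of members lay between that of constant loci and their surroundings. The median GC content of the 200 bp windows was 51.5% for the members, 53.0% for the constant loci, 48.0% for all distal loci, and 46.0% for windows 5 kb to either side of the members. Repeat sequence filled at least 50% of the window at 1.12% of the members, compared with 17.1% of the windows to either side. Members that kept TCF7L2 alone had a GC content of 55.5% and those that kept FOXP1 with TCF7L2 had 54.0%. Those that kept ARID1B alone had 49.0%. GC content alone can change how often a motif matches, and its part in the shares that follow was not tested.

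Both E-boxes were frequent. The proneural E-box CAGATG was found in 34.0% of the members (2248 windows, 32.8 to 35.1), 31.9% of the constant loci, 30.6% of all distal loci, and 15.4% of the windows to either side. The palindromic E-box CAGCTG was found in 25.1%, 21.1%, 19%, and 9.66% of the same sets. The homeobox core TAATTA matched 11.0% of the members (10.3 to 11.8), 6.39% of the constant loci, 9.51% of all distal loci, and 5.63% to either side. Motifs were searched on both strands, and a match is a description of the letters, not of a bound site.

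Motif content differed with the leading TR, here by −log10 p. Among members led by ARID1B, 42.9% held the proneural E-box, compared with 17.0% of those led by FOXP1 and 17.7% of those led by TCF7L2. Among the constant loci, the shares were 47.9%, 15.8%, and 11.7%. The E-box was thus more frequent in members than in constant loci over all, but less frequent where ARID1B led, and neither difference was tested. The homeobox core was more frequent in members within both larger classes, at 13.0% against 8.97% where ARID1B led and 7.64% against 3.54% where FOXP1 led. The TCF/LEF core was found in 8.92% of members led by TCF7L2, 2.88% of those led by ARID1B, and 2.43% of those led by FOXP1, while 3.38% of the windows to either side held it. The FOX core matched 3.52% of all members (3.10 to 3.99), 3.79% of all distal loci, 3.27% of the constant loci, and 2.8% to either side. With lists of equal size it matched 4.08% of the members, and with equal FOXP1 lists only 3.98%. Within the members it matched 4.50% where ARID1B led and 1.75% where FOXP1 led. With the leading TR taken by reads over background and windows moved to its summit, the proneural E-box matched 46.1% of members led by ARID1B, 19.5% led by FOXP1, and 20% led by TCF7L2, and the TCF/LEF core 6.51% of those led by TCF7L2.

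The CTCF core, a pattern of 14 bases (CCANNAG and GGCNC with 2 free bases between), divided the members by what they kept. It matched 2.28% of all members (151), 4.14% of the constant loci, 2.66% of all distal loci, and 0.325% of the windows to either side. The share of the members was not stable. It was 3.53% with lists of equal size at both stages, 3.28% with equal FOXP1 lists only, and 1.22% under the stricter threshold. The share of all distal loci was not computed under these settings. Of the members that kept ARID1B with TCF7L2, 1.17% matched. Among those that kept FOXP1 with TCF7L2 the share was 19.7% (38 of 193, 14.7 to 25.9), and among those with no peak left it was 17.0% (9 of 53, 9.2 to 29.2). The proneural E-box ran the other way, at 36.5%, 13.0%, and 18.9% of these 3 classes. By leading TR, 7.19% of members led by FOXP1 held the CTCF core and 0.394% of those led by ARID1B did, and the part of the leading TR in the difference between classes was not tested.

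**Figure D5:**
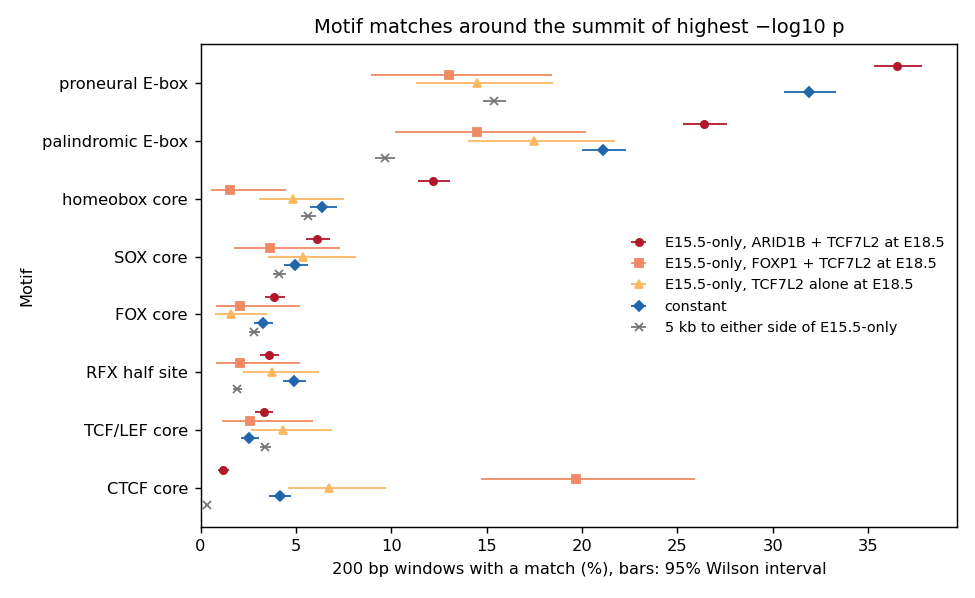
Share of 200 bp windows around the E15.5 summit of highest −log10 p that match each motif (horizontal axis, %, with 95% Wilson intervals) for E15.5-only loci by the TRs kept at E18.5, constant loci, and windows 5 kb to either side of the members. Loci that kept ARID1B with TCF7L2 lie furthest right for both E-boxes and the homeobox core, and those that kept FOXP1 with TCF7L2 for the CTCF core (19.7%).

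The remaining motifs were searched in the same windows. The SOX core ACAAAGG, which shares the letters CAAAG with the TCF/LEF core, matched 5.85% of the members, 4.97% of the constant loci, 4.64% of all distal loci, and 4.13% of the windows to either side. The RFX site GTTGCCNNG matched 3.46%, 4.89%, 3.11%, and 1.93% of the same sets, and the octamer ATGCAAAT matched 2.63%, 2.08%, 2.39%, and 1.31%. The AP-1 site TGANTCA matched 5.33%, 4.91%, 5.91%, and 5.56%, and the T-box site AGGTGTGA 1.1%, 0.552%, 0.915%, and 0.990%. The EGR site GCGTGGGCG was found in 0.151% of the members (10 windows), 0.297% of the constant loci, 0.0943% of all distal loci, and 0.0227% to either side. The NFI palindrome (TTGGC and GCCAA with 5 bases between) was found in 0.151%, 0.106%, 0.0989%, and 0.00756%. The TCF/LEF core matched 3.25% of all members, 2.55% of the constant loci, and 3.01% of all distal loci. Under the stricter threshold, the shares of the members were 2.89% for the TCF/LEF core, 2.31% for the octamer, and 0.834% for the T-box site. For the EGR site and the NFI palindrome they were 0.0641% and 0%. The shares of all distal loci were not computed at that threshold, so these values cannot be set against them. With lists of equal size, the TCF/LEF core matched 2.42%.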

How the data were processed

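ChIP-seq of mouse cortex was analysed from 6 peak lists that were taken to stand for 24 libraries. The authors mapped reads with BWA 0.7.15 to GRCm38 (mm10) and filtered them with SAMtools. Per the labels and methods, they called peaks with MACS2 2.2.7 against matched input, per replicate and then on merged replicates. A constant background was used, and reads were extended to 200 bp. The sources used here do not give the handling of duplicates. The deposited lists hold the ratio (fold enrichment) at each summit, −log10 of the p-value and of the q-value, and a score that was not used. Each list is deposited with the first replicate of its group, and it was taken to be of the merged replicates. Since the lists give no depth, the background was recovered from fold enrichment and p-value, which matched a Poisson model at 100.0% of peaks within 0.01 in −log10 p, and with it the reads of the smaller library.

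TSSs and annotation came from GENCODE vM21, a release other than the authors' version, and sequence from the RefSeq FASTA of GRCm38. Overlap meant at least 1 base. Annotation, nearest TSS, and sequence window are those of the summit with the highest −log10 p of the 3 TRs, with exons before introns of any transcript. Motifs were searched in 200 bp windows. Members, 13 gene lists, 13 motifs, and the rule for named loci (highest, without E18.5 peak, and nearest to the edge of the rule) and genes (most members overall and per list, and the TR genes) were chosen with earlier results of these data known. Some loci and genes that the rule names are not reported here. Genes and sequences singled out beyond that rule were chosen after their values were seen. No differences were tested, because each group is 1 list. The steps were tested on simulated lists. Python 3.11.15, pandas 2.3.3, pysam 0.24.0, and statsmodels 0.14.6 were used.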

Additional observations from a re-analysis of the deposited data

How the results depend on the processing

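No paired analysis was possible because each group is 1 peak list, taken to be called on merged replicates. For the same reason no replicate could be left out. The combination of lost FOXP1 with kept ARID1B and TCF7L2 was the most frequent under every setting run, but the number of E15.5-only loci was not stable. It fell to 1559 (76.2% of loci with all 3 TRs) when a −log10 p of 15 or more was required of each peak, and to 3141 (44.3%) with lists of equal size at both stages for each TR. With equal FOXP1 lists only, chosen after seeing the data, it was 2892 (40.5%). The cause was not tested. It lay between 5328 and 7037 under the other settings. With that requirement, 92.2% kept ARID1B and 4.23% FOXP1. With lists of equal size, 93.3% kept ARID1B, 16.0% FOXP1, and 77.3% TCF7L2. With equal FOXP1 lists only, the shares were 92.3%, 8.4%, and 94.5%, and 0.38% kept no peak. Where overlap had to cover at least 50% of the E15.5 locus, 59.7% were E15.5-only, 78.7% kept ARID1B, 2.23% FOXP1, 70.5% TCF7L2, and 5.74% none. With a common lowest fold enrichment, 56.7% were E15.5-only and 91.5% kept ARID1B. With a common lowest value of reads over background, chosen after seeing the data, the shares were 53.6% and 92.7%, and 0.432% kept none. Promoters to both sides of the TSS gave 91.5% for ARID1B and 4.84% for FOXP1, and promoters of protein-coding transcripts only gave 56.7% E15.5-only. With only distal E18.5 peaks, 90.7% kept TCF7L2 and 1.24% none. With E18.5 peaks that cover the E15.5 summit, 85.0% kept ARID1B, 4.61% FOXP1, 86.4% TCF7L2, and 2.24% none. Of the 13 motif shares, 7 moved by more than their interval under the stricter p-value, 7 with lists of equal size, 6 with equal FOXP1 lists, and 1 with a common lowest value of reads over background. None did with the leading TR taken by reads over background, a setting added after seeing the data. With 100 bp windows 13 moved and with 400 bp windows 11, but a share cannot rise in a narrower window or fall in a wider one. The number of genes with a member moved by over 1.5 times in 9 of 13 lists under the stricter p-value, 4 with lists of equal size, 5 with equal FOXP1 lists, and 1 (microglia) both with a common lowest value of reads over background and with any member within 100 kb of a TSS.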
